A study of Homo sapiens with 4 samples.

Results

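The ATP-binding cassette (ABC) genes were examined in OVCAR5 cells, a human cell line that the study used as an ovarian cancer line. The cells had been transduced with a control short hairpin RNA or with one directed at the transcription factor gene FOXK2. Members were taken by name alone. They were every row of the 4 count tables whose symbol was ABC, a letter A to G and a number. The rule left out symbols with further letters, as those of many pseudogenes have, but did not check the gene type. It gave 46 of the 56655 symbols in the tables. Of these, 12 belonged to subfamily A, 9 to B, 12 to C, 4 to D, 1 to E, 3 to F and 5 to G. Polyadenylated RNA was sequenced from 2 libraries that carried the nontargeting hairpin (shCtrl) and 2 that carried the FOXK2 hairpin (shFOXK2). Both groups shared the OVCAR5 background, the lentiviral pLKO.1-puro type of vector, selection in puromycin and the culture medium, so the comparison is between pools of selected cells. The study used 2 hairpins against FOXK2 elsewhere and named the second for its RNA sequencing. The study counts the 2 libraries of a group as biological replicates. Whether these came from separate transductions or cultures is not given in the sources used here, so p-values measure the spread between these samples, which may be technical.

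ABC proteins bind and hydrolyse ATP through a conserved pair of nucleotide-binding domains. In most subfamilies these domains drive the movement of a lipid, a peptide, a metal complex, a conjugate or a drug across a membrane. Subfamilies A and G hold sterol and phospholipid exporters, subfamilies B, C and G hold the pumps best known for removing chemotherapy drugs from tumour cells, and subfamily D serves the import of fatty acids into peroxisomes and, through ABCD4, the release of cobalamin from lysosomes. Subfamilies E and F have the ATP-binding domains but no membrane-spanning part, and act on the ribosome. Resistance of ovarian cancer to taxanes and platinum has long been studied through the drug pumps.

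The number of reads assigned to genes ran from 14284005 to 21950873 per library, and 3 counts, used as a floor, corresponded to 0.134 to 0.211 CPM, which are counts brought to a common library total. CPM values were scaled by TMM, the trimmed mean of M values, with each group shown as the mean ± SD of its 2 libraries. Floors of this kind cover counting error only. The targeted gene FOXK2 was counted 1796 and 1499 times in shCtrl against 1086 and 1084 times in shFOXK2, or 86.9 ± 9.10 against 67.9 ± 11.9 CPM. The groups did not overlap, but the log2 fold change of −0.36 (SE 0.25) did not pass the test (edgeR quasi-likelihood F test, Benjamini-Hochberg adjusted p = 0.257). The knockdown could therefore not be called from these counts, and the groups below are those of the labels. The study itself reported less FOXK2 mRNA by qRT-PCR and less protein by western blot in OVCAR5 cells transduced with shFOXK2. It does not state that those measurements were of the sequenced samples. All 8 epithelial markers were measured, with summed levels of 4323 to 5763 CPM in shCtrl and 4240 to 5405 CPM in shFOXK2. Keratins carried these sums, and 3 of the 8 markers fell: CDH1 (log2 fold change −4.02), CLDN3 (−1.96) and CLDN4 (−1.02). Of 7 ovarian serous markers, WT1, SOX17 and ESR1 had at most 3 counts in any library, 3 fell, among them MUC16 (log2 fold change −5.76) and PAX8 (−0.88), and MSLN rose (1.11). The summed serous markers ran from 42.9 to 44.9 CPM in shCtrl and from 19.7 to 21.8 CPM in shFOXK2. Leukocyte markers summed to 18.1 to 22.6 CPM in shCtrl and 9.14 to 9.39 CPM in shFOXK2, nearly all from CD14. PTPRC had 0 to 3 counts, and CD14 fell (log2 fold change −1.14). Fibroblast markers summed to at most 20.6 CPM, most of it from COL1A1, which was not called, with COL1A2 and DCN at 0 to 3 counts. PDGFRB fell from 127 and 87 counts in shCtrl to 2 and 8 in shFOXK2 (log2 fold change −4.16). Endothelial markers summed to 8.10 to 11.2 CPM in shCtrl and 1.69 to 2.91 CPM in shFOXK2. Of these, PECAM1 (log2 fold change −2.45) and CDH5 (76 and 33 counts against 0 and 0) fell, and CLDN5 was not called. The part of these differences in the ABC results was not tested.

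Of the 46 ABC genes, 30 had enough reads to be tested and 11 passed an adjusted p of 0.05, a share of 36.7%. Of all 16417 genes tested, 48.4% passed, 25.7% higher in shFOXK2 and 22.7% lower, so the ABC genes as a whole did not stand above the background. Of the 30, 3 rose (ABCE1, ABCC2 and ABCF1) and 8 fell, among them ABCG1, ABCA1, ABCG4, ABCA2, ABCA3, ABCC1 and ABCA7. The 8 of 30 that fell lay near the 22.7% of all genes that fell, while the 3 of 30 that rose lay below the 25.7%. The median log2 fold change of the 30 was −0.38, with a range of −3.51 to 1.90, beside a median of 0.04 over all genes tested. The 2 groups of libraries did not overlap for 5 ABC genes that were higher and 17 that were lower, where 75.4% of all genes did not overlap, 39.2% higher and 36.2% lower. The summed level of the family was 1734 ± 14.9 CPM in shCtrl and 1483 ± 40.6 CPM in shFOXK2. The plot of fold changes by subfamily shows these differences gene by gene. In bulk RNA, fewer cells that express a gene and less of its RNA per cell cannot be told apart.

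**Figure D1:**
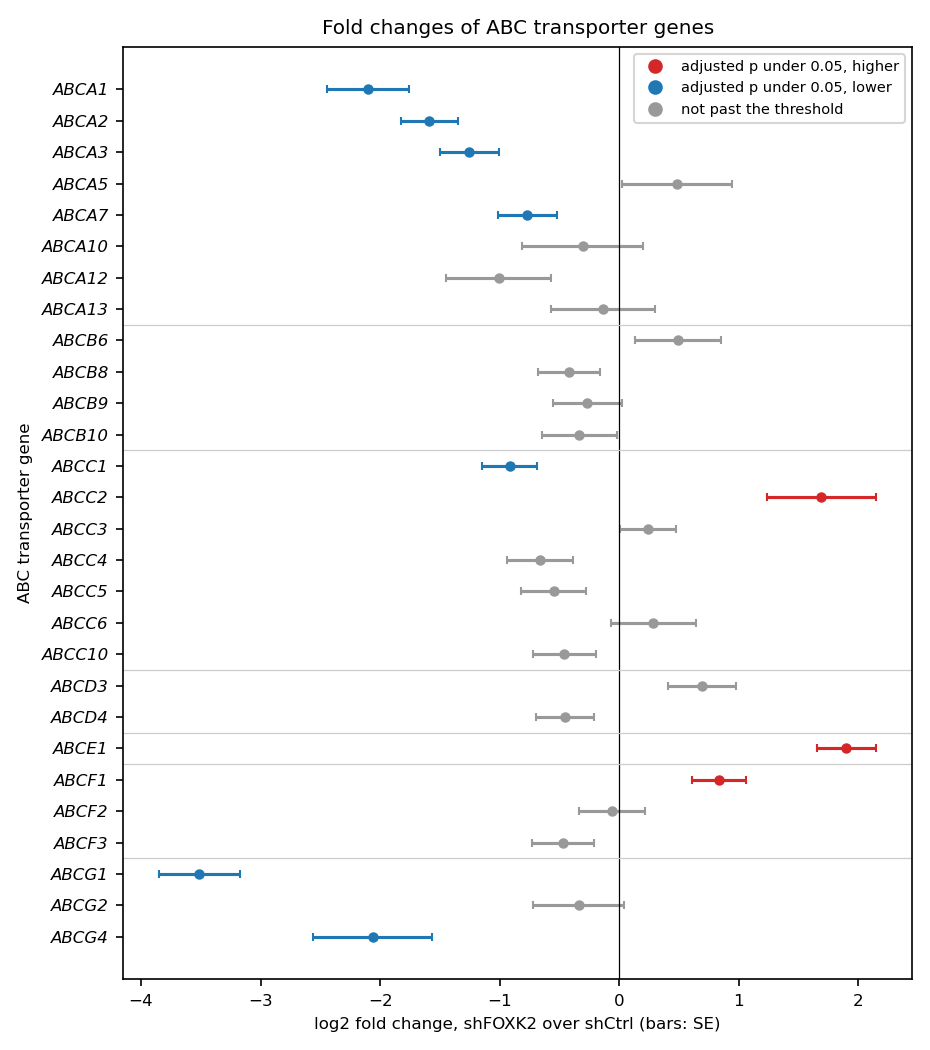
Log2 fold change of shFOXK2 over shCtrl (horizontal axis) for 28 of the 30 ABC genes tested, in order of subfamily, with bars of 1 SE either side from the edgeR fit of 2 against 2 libraries. Red points are genes called higher, blue points genes called lower and grey points those not past the threshold, and the values run from −3.51 for ABCG1 to 1.90 for ABCE1.

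Promoters were read from the RefSeq table of GRCh38.p14, which covers 250 bases before to 50 after each start and held 35 of the 46 members. FOXK2 is a forkhead factor, and forkhead factors bind the letters TGTTTAC, which were searched on both strands. The windows shown are those of called members that hold these letters or their core. Among members with an entry, TGTTTAC was in 2 of the 3 that rose and in 0 of the 5 that fell. The 250 bases upstream of the start of ABCE1 (chr4:145098061-145098310, plus strand), of ABCF1 (chr6:30571192-30571441, plus strand) and of ABCA1 (chr9:104928156-104928405, minus strand) are given 5′ to 3′ along each gene. Capitals mark TGTTTAC in the first 2 and, in ABCA1, TAAACA, the reverse complement of the shorter core TGTTTA.
ABCE1: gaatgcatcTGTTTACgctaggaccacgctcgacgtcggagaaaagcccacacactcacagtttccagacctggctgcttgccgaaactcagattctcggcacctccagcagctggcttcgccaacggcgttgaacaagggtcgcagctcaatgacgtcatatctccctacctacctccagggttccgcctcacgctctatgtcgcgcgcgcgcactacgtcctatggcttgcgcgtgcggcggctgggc
ABCF1: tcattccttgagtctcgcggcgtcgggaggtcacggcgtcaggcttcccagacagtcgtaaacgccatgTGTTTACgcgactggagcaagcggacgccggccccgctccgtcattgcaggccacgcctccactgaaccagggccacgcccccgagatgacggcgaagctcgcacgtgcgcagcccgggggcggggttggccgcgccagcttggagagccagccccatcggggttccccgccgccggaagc
ABCA1: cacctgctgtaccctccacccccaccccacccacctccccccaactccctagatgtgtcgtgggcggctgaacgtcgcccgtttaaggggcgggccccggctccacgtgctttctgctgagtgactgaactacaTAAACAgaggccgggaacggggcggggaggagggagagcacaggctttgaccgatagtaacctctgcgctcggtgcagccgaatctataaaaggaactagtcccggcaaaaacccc
The letters TGTTTAC stood 241 bases before the start of ABCE1 and 181 bases before that of ABCF1, and were found in 1 other member, ABCA6, which was too low to be tested. This was 3 of the 53 promoter windows of the 35 members, some of which have more than 1 window. Of all 35116 promoters in the table, also counted by window, 3.42% held them. The core TGTTTA, which also matches within TGTTTAC, was found in 8 of the 53, against 12.3% of all promoters. Other motifs searched on both strands were the E-box CACGTG and the antioxidant response element TGACNNNGC. The E-box was found in 9 of the 53, which belonged to 8 members, and in 7.26% of all promoters. A single site of ABCG2 was counted in more than 1 of its windows, which overlap. The antioxidant response element was found in 12 of the 53 and in 13.3% of all promoters. An element for the liver X receptors was also searched and was found in 0 of the 53. It was in only 7 of all 35116 promoters, so its absence cannot set the members apart from other genes. A match describes the letters of this window only.

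The sterol and phospholipid exporters held the deepest falls. ABCG1, which moves cholesterol to lipoproteins (hg38 chr21:42199689-42297244, plus strand), gave 687 and 450 counts in the controls and 45 and 37 in shFOXK2. Its level of 29.4 ± 1.95 CPM in shCtrl stood against 2.60 ± 0.80 CPM in shFOXK2, or 8.83% of the control level, a log2 fold change of −3.51 (SE 0.34, edgeR adjusted p = 6.49e-06). Both shFOXK2 libraries lay far below both controls. ABCA1, the exporter that loads apolipoprotein A-I with cholesterol (chr9:104781006-104928155, minus strand), was counted 2544 and 983 times in shCtrl against 360 and 285 times in shFOXK2. Its 2 control libraries differed widely, at 114 and 61.2 CPM, yet both lay above the 25.3 and 15.7 CPM of shFOXK2. The log2 fold change was −2.10 (SE 0.34, edgeR adjusted p = 0.000269). ABCG4, a close relative of ABCG1 (chr11:119149052-119162653, plus strand), fell from a far lower level, with 31 and 24 counts in the controls against 5 and 6 in shFOXK2 (log2 fold change −2.06, SE 0.50, edgeR adjusted p = 0.00401). The sterol exporters ABCG5 and ABCG8, which work as a dimer in liver and gut, had at most 2 counts in any library, were not tested and lie head to head, with exons that overlap.

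ABCA2, a lysosomal lipid transporter that has also been linked to estramustine resistance (chr9:137007234-137028915, minus strand), yielded 2909 and 2178 counts in the control libraries, with 649 and 781 in those of shFOXK2, or 133 ± 3.74 against 44.3 ± 1.92 CPM. ABCA3, which fills lamellar bodies with phospholipid (chr16:2275881-2340746, minus strand), gave 2022 and 1538 counts in the controls and 603 and 652 in shFOXK2. ABCA7, a phospholipid exporter (chr19:1039997-1065572, plus strand), was counted 1235 and 993 times in shCtrl against 499 and 615 times in shFOXK2. In all 3 genes the 2 groups were separate, and the spread within a group was small beside the gap. The log2 fold changes were −1.59 (SE 0.24, edgeR adjusted p = 0.000168) for ABCA2, −1.25 (SE 0.25, adjusted p = 0.0011) for ABCA3 and −0.77 (SE 0.25, adjusted p = 0.0208) for ABCA7. ABCA7 did not keep its call in every fit, since its adjusted p was 0.0673 when shFOXK2 replicate 1 was left out and 0.102 when shFOXK2 replicate 2 was.

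The other tested genes of subfamily A did not pass. ABCA12, a glucosylceramide transporter, yielded 62 and 35 counts in the control libraries, with 11 and 30 in those of shFOXK2 (log2 fold change −1.01, edgeR adjusted p = 0.073). Without shFOXK2 replicate 2 it stood at −1.71. Most alternatives that kept all libraries gave no call for ABCA12. It passed under some, at −1.26 with the A content offset (edgeR adjusted p = 0.0323). ABCA5 was the only tested subfamily A gene with a value above 0 (log2 fold change 0.48, edgeR adjusted p = 0.408), and its controls were far apart at 8.34 and 2.43 CPM. It was called higher without shCtrl replicate 1, at 1.61, and had a value of −0.20 without shCtrl replicate 2. ABCA10, which shares exonic positions with ABCA5, and ABCA13 were also not called, at −0.31 and −0.13. ABCA4, the retinal transporter, gave 13 and 7 counts in the controls and 1 and 3 in shFOXK2, and with ABCA6, ABCA8 and ABCA9 it was not tested. Over the 17 members with lipid substrates, 10 were tested, 6 fell and none rose, where 22.7% of all genes fell and 25.7% rose, and the median log2 fold change was −1.13. The summed level of subfamily A was 406.6 and 362.5 CPM in shCtrl and 157.3 and 143.4 CPM in shFOXK2, and that of subfamily G was 33.3 ± 2.42 CPM against 5.04 ± 0.830 CPM.

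**Figure D2:**
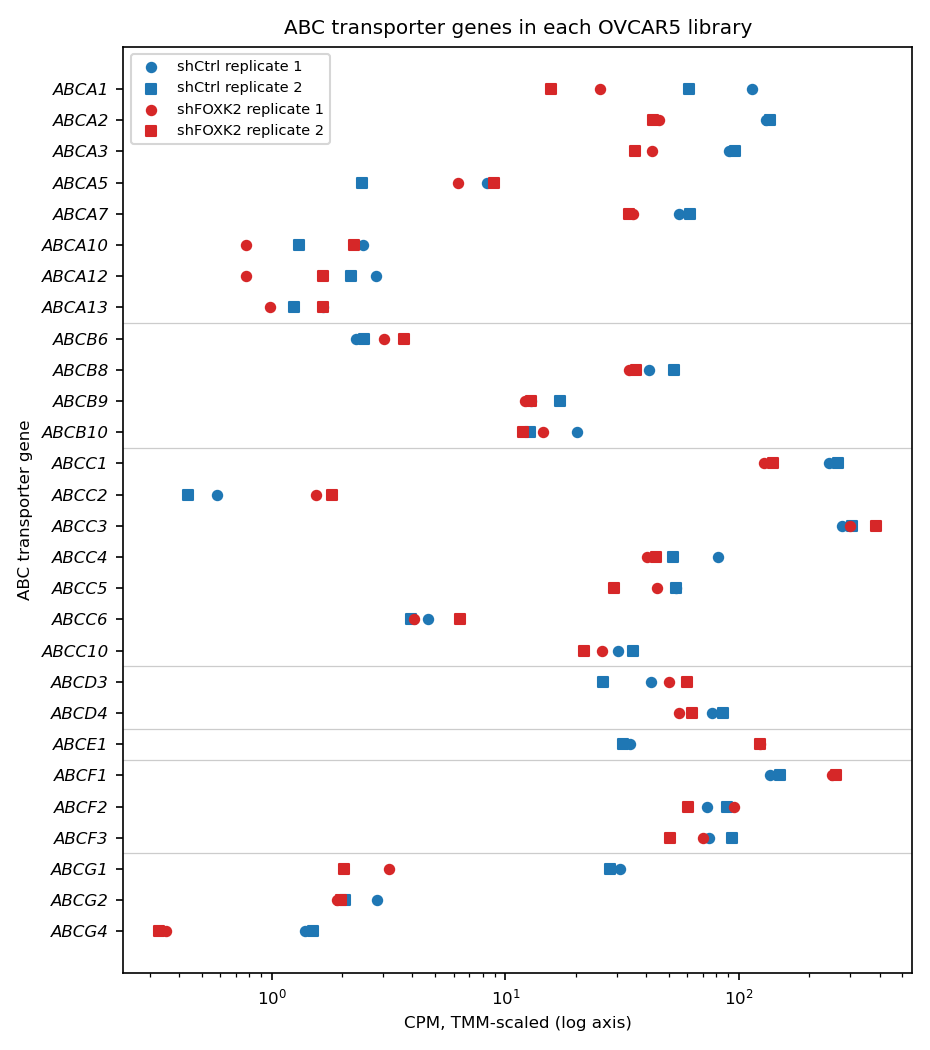
TMM-scaled CPM (horizontal log axis) of 28 of the 30 tested ABC genes in each of the 4 libraries, with shCtrl in blue, shFOXK2 in red, circles for replicate 1 and squares for replicate 2. For ABCG1 the controls stand at 30.8 and 28.0 CPM and the shFOXK2 libraries at 3.16 and 2.03 CPM, while for ABCC3 one shFOXK2 library, at 297.3 CPM, lies between the controls.

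Among the drug pumps, the multidrug resistance proteins of subfamily C carried nearly all of the reads. ABCB1, which encodes P-glycoprotein, was counted 0 and 1 times in shCtrl against 0 and 0 times in shFOXK2, so no difference was detectable at this depth. ABCG2, the breast cancer resistance protein, yielded 63 and 33 counts in the control libraries, with 27 and 36 in those of shFOXK2 (log2 fold change −0.34, edgeR adjusted p = 0.489). Its groups were separated by less than the spread of the controls, at 2.82 and 2.06 against 1.90 and 1.98 CPM. ABCC1, the first multidrug resistance protein and an exporter of glutathione conjugates (chr16:15949138-16143257, plus strand), gave 5395 and 4256 counts in the controls and 1824 and 2553 in shFOXK2. Its level was 253.5 ± 16.5 CPM in shCtrl and 134.2 ± 8.50 CPM in shFOXK2 (log2 fold change −0.92, SE 0.23, edgeR adjusted p = 0.00482). Among the members grouped by drug substrates, ABCC1 was the one that fell. ABCA2 and ABCA3, which also fell, were grouped with the lipid substrates. ABCC2, which exports conjugates and platinum compounds at the apical membrane (chr10:99782640-99852594, plus strand), was near the limit of detection, with 13 and 7 counts in the controls against 22 and 33 in shFOXK2. It rose by the test (log2 fold change 1.69, SE 0.46, edgeR adjusted p = 0.00794), but not by the DESeq2 Wald test (adjusted p = 0.0675), nor without shCtrl replicate 2 (edgeR adjusted p = 0.0976).

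ABCC3, an exporter of bile acid and drug conjugates, had the most reads of any member, with 6153 and 4876 counts in the controls against 4229 and 7036 in shFOXK2 (log2 fold change 0.24, edgeR adjusted p = 0.425). Its level was 289.8 ± 19.8 CPM in shCtrl and 341.9 ± 63.1 CPM in shFOXK2, and one shFOXK2 library lay between the controls. With an offset on GC or A content it was called higher, at 0.54 (adjusted p = 0.0485) and 0.59 (adjusted p = 0.04). ABCC4, which moves cyclic nucleotides and nucleoside drugs, was counted 1819 and 838 times in shCtrl against 574 and 805 times in shFOXK2. At −0.66 (SE 0.27, edgeR adjusted p = 0.0606) it stood just outside the threshold, and without shCtrl replicate 2 it passed at −1.02 (adjusted p = 0.00294). ABCC5 yielded 1199 and 864 counts in the control libraries, with 634 and 529 in those of shFOXK2 (log2 fold change −0.55, edgeR adjusted p = 0.113), and passed without shFOXK2 replicate 1 (adjusted p = 0.0422). ABCC10, whose exons overlap DLK2 on the other strand, gave 678 and 562 counts in the controls and 369 and 394 in shFOXK2 (log2 fold change −0.46, edgeR adjusted p = 0.165). All 4 libraries of ABCC5 and ABCC10 were ordered by group, with the controls above, as for 36.2% of all genes tested, yet neither gene passed the test. Of the 11 members with drug substrates, 7 were tested, 1 rose and 1 fell, with a median log2 fold change of −0.46. Of all genes tested, 25.7% rose and 22.7% fell. ABCC11 was counted 21 and 9 times in shCtrl against 8 and 10 times in shFOXK2, and ABCC12 had 0 in all libraries.

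The rest of subfamily C was low. ABCC6, which releases ATP from hepatocytes, had a log2 fold change of 0.29 (edgeR adjusted p = 0.529), and its reads are uncertain because near-identical pseudogenes exist. The sulphonylurea receptors ABCC8 and ABCC9, which regulate potassium channels, were not tested, with ABCC8 at 7 and 7 counts in the controls against 8 and 28 in shFOXK2. Their channel partner KCNJ11 had a log2 fold change of −0.54 (edgeR adjusted p = 0.341), and KCNJ8 had 0 counts. ABCC13, which could not be matched to an annotated transcript, had at most 8 counts.

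In subfamily B no gene was called. ABCB6, ABCB8 and ABCB10 serve porphyrin transport, the mitochondrial inner membrane and haem synthesis, and had log2 fold changes of 0.49, −0.42 and −0.33, with edgeR adjusted p-values of 0.277, 0.196 and 0.398. ABCB9, a lysosomal peptide transporter whose exons overlap ARL6IP4 and OGFOD2 on the other strand, had −0.27 (edgeR adjusted p = 0.478). The summed level of the subfamily was 101.7 ± 0.854 CPM in shCtrl and 81.6 ± 3.8 CPM in shFOXK2, a separation without a called member. ABCB4, which exports phosphatidylcholine into bile, yielded 9 and 6 counts in the control libraries, with 0 and 10 in those of shFOXK2. ABCB11, the bile salt export pump, had 1 count in 1 library, and ABCB5 had at most 3 counts, so neither was measurable at this depth.

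In subfamily D, ABCD3, which imports branched chain acids and bile acid precursors, stood on the higher side without passing, with 936 and 420 counts in the controls against 712 and 1094 in shFOXK2 (log2 fold change 0.69, SE 0.28, edgeR adjusted p = 0.0583). When 1 library was left out its value ranged from 0.32 to 1.04, the latter without shCtrl replicate 1. Over the alternatives that kept all libraries it ranged from 0.065 to 0.81. It passed under some of these, among them the length offset, but stood at 0.31 with the A content offset (edgeR adjusted p = 0.177). The 2 control libraries of ABCD3 differed, at 41.9 and 26.2 CPM, and both lay below the 50.1 and 60.1 CPM of shFOXK2. ABCD4, the lysosomal cobalamin transporter, had a log2 fold change of −0.45 (edgeR adjusted p = 0.138). ABCD2, an importer of very long chain fatty acids, was counted 3 and 0 times in shCtrl against 1 and 13 times in shFOXK2 and was not tested.

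Of the 4 members that work on the ribosome, ABCE1 and ABCF1 rose, and ABCF2 and ABCF3 were not called. ABCE1, which splits the ribosome after termination so that it can be reused (chr4:145098288-145129524, plus strand), yielded 764 and 510 counts in the control libraries, with 1755 and 2242 in those of shFOXK2. Its level rose from 33.0 ± 1.75 to 123.3 ± 0.149 CPM, with a log2 fold change of 1.90 (SE 0.25, edgeR adjusted p = 5.45e-05). The shFOXK2 libraries were close to each other and far above the controls, but exons of ANAPC10 and OTUD4 overlap those of ABCE1 on the other strand, and the strand setting of the counting was not stated, so these reads could not be told apart. ABCF1, which binds initiation factor eIF2 (chr6:30571393-30597179, plus strand), gave 3027 and 2402 counts in the controls and 3540 and 4731 in shFOXK2. Its level rose from 142.7 ± 9.86 to 254.4 ± 7.81 CPM (log2 fold change 0.83, SE 0.23, edgeR adjusted p = 0.00811). ABCF2, which shares exonic positions with the readthrough gene ABCF2-H2BK1, had a log2 fold change of −0.06 (edgeR adjusted p = 0.875), and ABCF3 one of −0.47 (adjusted p = 0.155). The 2 shFOXK2 libraries of these genes differed, at 95.2 and 60.4 CPM for ABCF2 and 70.3 and 50.9 CPM for ABCF3.

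**Figure D3:**
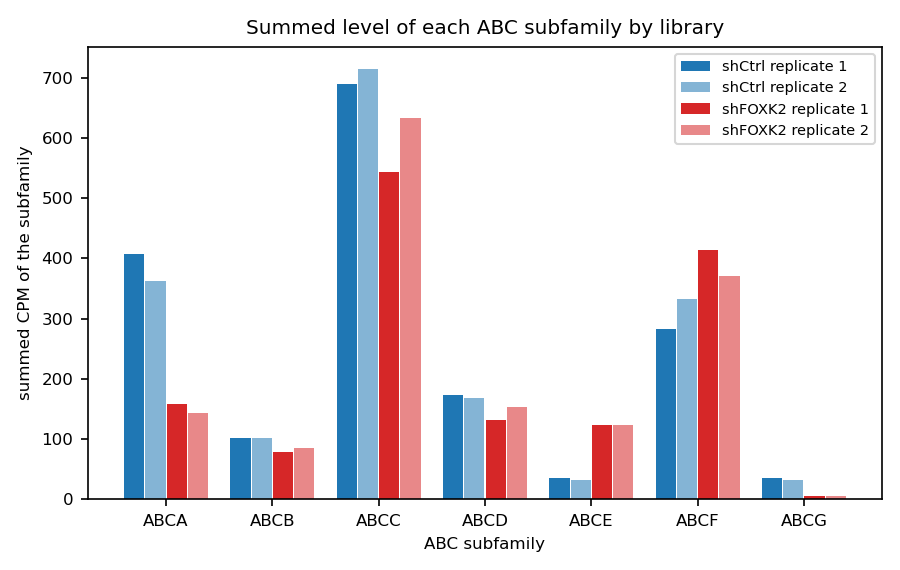
Summed CPM of each ABC subfamily, A to G (vertical axis from 0), with 1 bar per library and 2 libraries per group, shCtrl in blue and shFOXK2 in red. The bars of subfamilies A and G are lower in both shFOXK2 libraries and those of subfamily E are higher, while subfamily C stands at 690.1 and 715.6 against 543.4 and 632.6 CPM.

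Levels were compared between members only per kilobase (kb) of the canonical transcript, for the 45 members with an annotated length. In shCtrl the order was led by ABCC3 at 50.9 ± 3.47 CPM per kb, followed by ABCF1 at 41.9 ± 2.90, ABCC1 at 39.0 ± 2.53, ABCF3 at 34.3 ± 5.50 and ABCD4 at 26.7 ± 2.10. ABCF1 and ABCC1 overlapped within their SDs, as did ABCC1 and ABCF3, so their order is not fixed by these libraries. In shFOXK2 the leaders were ABCF1 at 74.7 ± 2.29 CPM per kb, ABCC3 at 60.1 ± 11.1, ABCE1 at 31.7 ± 0.0384, ABCF3 at 24.8 ± 5.62 and ABCC1 at 20.6 ± 1.31. ABCF3 and ABCC1 overlapped within their SDs, as did ABCC1 and ABCD4 (19.5 ± 1.77), so the order of these 3 is not fixed. The first 5 members made up 54.1% of the summed level per kb in shCtrl and 63.8% in shFOXK2. As a share of the summed CPM of the family, subfamily A was 22.2% ± 1.99 in shCtrl and 10.1% ± 0.943 in shFOXK2, subfamily E 1.90% ± 0.117 and 8.32% ± 0.238, subfamily F 17.7% ± 1.85 and 26.5% ± 2.79, and subfamily C 40.5% ± 0.691 and 39.6% ± 3.17. At the lower end, 15 members had under 1 CPM on average in both groups and 12 had at most 10 counts in every library.

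Base composition moved with these differences. Over the 30 tested members, Spearman's rho between the log2 fold change and the percentage of A in the canonical transcript was 0.447, and over 14402 tested genes with an annotated transcript it was 0.327. These correlations are across genes of the same 4 libraries and are given as a description. For transcripts under 22% A the median log2 fold change was −0.30 over 3862 genes and −0.61 over 12 members, 6 of which fell, as did 33.4% of those genes. Transcripts with 30% A or more had a median of 0.75 over 2955 genes and 0.59 over 4 members, of which ABCE1 alone was called, while 46.9% of those genes rose. With an offset fitted on A content, all 11 called members were still called, but the log2 fold change of ABCE1 went from 1.90 to 0.53 (edgeR adjusted p = 0.0495), that of ABCC1 from −0.92 to −0.58, that of ABCA1 from −2.10 to −1.92 and that of ABCG1 from −3.51 to −3.20. The offset moved the median of all genes by 0.17 and took the count of members to 4 higher and 10 lower.

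**Figure D4:**
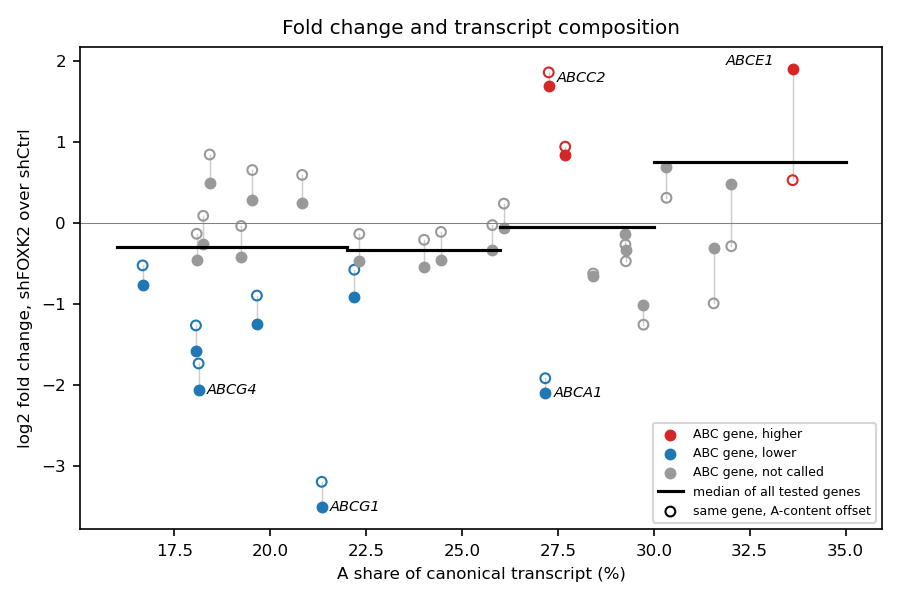
Log2 fold change of shFOXK2 over shCtrl against the percentage of A in the canonical transcript for 28 of the 30 tested ABC genes, with filled points for the values without an offset, open points for the same genes with the A content offset, and black lines for the median of all tested genes in 4 ranges of A. The median line is at 0.75 for transcripts with 30% A or more, and ABCE1, at 33.6% A, moves from 1.90 to 0.53 while ABCG1, at 21.3% A, moves from −3.51 to −3.20.

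The ABC proteins that carry other symbols were examined beside the family. TAP1, which with TAP2 pumps peptides into the endoplasmic reticulum for MHC class I, was counted 1783 and 1680 times in shCtrl against 322 and 245 times in shFOXK2 (log2 fold change −2.36, SE 0.31, edgeR adjusted p = 5.65e-05). Its partner TAP2 yielded 1077 and 744 counts in the control libraries, with 818 and 737 in those of shFOXK2 (log2 fold change 0.05, adjusted p = 0.895). One subunit of the dimer thus fell while the other gave no call, and the difference between them was not tested. CFTR, the chloride channel of this family, gave 18 and 4 counts in the controls and 1 and 2 in shFOXK2 and was not tested. Of 10 genes that work with TAP in peptide loading, 9 fell and 1 rose, beside 22.7% and 25.7% of all genes, with a median of −1.33 and the smallest p-values for PSMB9 (−2.58), ERAP1 (−2.27), TAPBP (−1.89) and CALR (−1.56).

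Lists of related genes were read against the same shares of all genes, 25.7% higher, 22.7% lower and 48.4% in all, without a test of any list. Of 16 tested regulators of ABC genes, 7 fell and none rose, with a median log2 fold change of −0.57. With an offset on GC, A content or length, 2 rose and 7 fell. In the count without an offset the smallest p-values belonged to SREBF2 (−2.92), PPARA (−2.24), ARNT (−1.30) and RXRA (−0.96). The liver X receptors (LXR) switch on ABCA1 and ABCG1 in response to oxysterols. NR1H2, which encodes LXR beta, fell (log2 fold change −1.15), and NR1H3, which encodes LXR alpha, had a value of 0.02 without a call. Of 10 LXR targets that are not ABC genes, 6 fell and none rose, with a median of −1.20, led by SCD (−2.97), SREBF1 (−2.23), LPCAT3 (−2.33) and PLTP (−3.53). Of 15 tested genes of sterol and lipid traffic, 10 fell and 2 rose, with a median of −0.96, which went to −0.59 with the A content offset. INSIG1 (−2.98), a target of the sterol regulatory factors, fell, and CAV1 (2.09), which encodes a protein of caveolae, rose. Of 16 genes of peroxisomal biogenesis and oxidation, 9 fell and none rose, with a median of −0.997, led by CAT (−1.79), ACOT8 (−1.69), HSD17B4 (−1.43) and ACOX3 (−1.22).

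Of 18 tested genes for drug uptake and for copper and platinum handling, 3 rose and 6 fell, with a median log2 fold change of −0.09, against 25.7% and 22.7% of all genes. With the A content offset 5 rose and 5 fell and the median turned to 0.22, and with the GC offset it was 0.18. SLCO1B3, an organic anion importer that carries taxanes, rose from 80 and 32 counts in shCtrl to 408 and 523 in shFOXK2 (log2 fold change 3.34), while the copper exporter ATP7B (−2.28), the major vault protein gene MVP (−1.32) and the cation importer SLC22A2 (−1.83) fell. Of 16 tested genes listed for glutathione synthesis and conjugation, some of which make conjugates that ABCC1 and ABCC2 export, 2 rose and 6 fell. The median was −0.32, and with the A content offset 1 rose and 3 fell, with a median of −0.20. GGT1 (−2.45), GSTM4 (−2.99) and GSTM3 (−1.77) fell and the cystine importer SLC7A11 (2.17) rose. Of 18 tested genes of mitochondrial haem and iron-sulphur synthesis, 1 rose and 5 fell, with a median of −0.20. SLC25A28 (0.998) rose and ALAD (−1.18), FECH (−1.20) and NFS1 (−0.74) fell, but with the A content offset 7 rose and 2 fell and the median turned to 0.16.

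Of 14 tested genes listed for translation termination, ribosome recycling and initiation, 7 rose and 1 fell, with a median log2 fold change of 0.73. The list also held genes that control eIF2, so these counts are not those of partners of ABCE1 alone. Of all genes, 25.7% rose and 22.7% fell. NEMF, which marks stalled large subunits after ABCE1 has split the ribosome, was counted 334 and 128 times in shCtrl against 2141 and 3715 times in shFOXK2 (log2 fold change 3.94, SE 0.34). EIF3J (2.59), which acts with ABCE1 in recycling, and the eIF2 subunits EIF2S2 (1.63) and EIF2S1 (0.89) also rose. NEMF, EIF3J and EIF2S1, at 35.7%, 33.8% and 31.8% A, lie in the range of 30% A or more, in which 46.9% of all genes rose. EIF2S2, at 29.5% A, lies below that range. After the offset on A content 5 of the 14 listed genes rose, none fell and the median was 0.14. Without shCtrl replicate 2, 3 rose and none fell, with a median of 0.37.

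The calls on the family held under most of the other settings tried. Of the 11 called members, 9 (all but ABCA7 and ABCC2) were called under each of 11 alternatives that kept all 4 libraries and tested them, and under each of the 4 fits that left out 1 library. ABCG4 and ABCC2 had too few reads for the filter that required 10 counts in all libraries and were not tested under it. When a change of more than 1 on the log2 scale was required (glmTreat of edgeR), ABCG1, ABCA1, ABCG4, ABCA2 and ABCE1 were left, beside 20.6% of all genes. The counts of members called higher reached 5 without shCtrl replicate 1 and without shFOXK2 replicate 1. With 2 libraries in each group, an exact permutation test of a single gene cannot give a 2-sided p below 0.333, so each call rests on the variance shared across genes.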

How the data were processed

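RNA from 2 shCtrl and 2 shFOXK2 OVCAR5 libraries was sequenced. Groups and replicate numbers came from the sample titles. The authors aligned reads to hg38 with STAR 2.5.2, counted them with HTSeq and deposited raw counts per gene symbol, 1 table per library and without normalization. The gene annotation and strand setting are not given in the sources used here. Rows without a gene name were absent and all value columns were used.

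Counts were filtered with filterByExpr (minimum count 10, minimum total 15), scaled by TMM and compared in edgeR 4.0.16 (R 4.3.3) by its 2-sided quasi-likelihood test, with Benjamini-Hochberg adjustment over all 16417 genes tested and a threshold of 0.05. SE was the size of the log2 fold change over the root of F. The code was tested on simulated data. Every member was accounted for, and in related lists up to 4 genes with the smallest adjusted p were named. NR1H2, NR1H3 and the channel partners were named besides, after their values were seen. A few genes that the rule would name are not reported here, in text or figures. The members and lists were chosen with earlier results of these data known.

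Replicates were not copies of one library: the chi-square per gene was 38.1 between the shCtrl and 27.9 between the shFOXK2 libraries. Transcript length and base content came from GENCODE 44, matched to 36901 symbols (65.1%) and 45 of 46 members, and 87.7% of the genes tested had a value. Alternatives changed the scaling, the filter, the test (DESeq2 1.42.0 and glmTreat), offsets on GC, A content or length (lowess span 0.2), the replicate block and the libraries kept.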

Additional observations from a re-analysis of the deposited data

How the results depend on the processing

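With a required change of more than 1 (glmTreat), 5 members were called, 1 higher and 4 lower, and 3386 genes in all. Leaving out 1 library gave 11 to 13 members, 2 to 5 higher and 8 to 9 lower, 6771 to 7775 genes in all, a median of −0.51 to −0.34 over the members and −0.57 to −0.22 for FOXK2. Leave-one-out fits assume that the lone library varies like those of the other group. Other alternatives gave 10 to 16 members. The median of the members was −0.33 with at least 10 counts in every library, −0.30 with the length offset and −0.19 with the A content offset. The cause was not tested. FOXK2 was called under none and stood at −0.03 with the A content offset.

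Uncalled members changed sign. With the GC offset, the GC offset plus replicate block and the A content offset, ABCA5 stood at −0.63, −0.55 and −0.29, ABCB9 at 0.033, 0.028 and 0.086, and ABCF2 at 0.24, 0.21 and 0.24. ABCF2 stood at 0.058 with the length offset. When 1 library was left out, ABCA10 ranged from −1.34 to 0.20, ABCA13 from −0.60 to 0.14, ABCA5 from −0.20 to 1.61, ABCB10 from −0.70 to 0.0085, ABCC6 from −0.11 to 0.54 and ABCF2 from −0.45 to 0.20. ABCC4 passed under 6 alternatives that kept all libraries. Of the values of the members reported, 300 under alternatives that kept all libraries and 94 under those that left one out gave the same direction and call.

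The replicate numbers share only a number. Deviations of same-numbered libraries correlated at −0.113, and with the number as a replicate block 3 members were higher and 7 lower, with 7270 genes in all. ABCA7 was not called (adjusted p = 0.0533). With crossed numbers, chosen after seeing the data, 4 members were higher and 9 lower, with 8350 genes in all. Recounting the subfamilies and related lists, also chosen after seeing the data, kept 196 of the counts of calls within 1.5 times under alternatives with all libraries and moved 32. Depth limits the 12 members with at most 10 counts in every library.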
